A study of Homo sapiens with 30 samples.

Results

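The HOX genes are the clustered homeobox genes of the 4 human HOX clusters, A, B, C and D, which lie on chromosomes 7, 17, 12 and 2. A gene was taken as a member where a feature (a transcript cluster, the array's unit of measurement) carried as its only symbol HOXA, HOXB, HOXC or HOXD followed by a number. This gave 24 genes among the 52329 features of the array, of which 21055 carry exactly 1 gene symbol. The members are HOXA2, 8 HOXB genes (HOXB1, HOXB2, HOXB5, HOXB6, HOXB7, HOXB8, HOXB9 and HOXB13), 8 HOXC genes (HOXC5, HOXC6 and HOXC8 to HOXC13 without a gap) and 7 HOXD genes (HOXD1 and HOXD8 to HOXD13). No member had more than 1 such feature. The 4 anterior members have paralogue numbers up to 3, the 8 central members numbers from 4 to 8, and the 12 posterior members numbers from 9 to 13. A further 5 features carry several symbols with a HOX gene among them and were left out.

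HOX proteins are transcription factors that tell a cell where along the head-to-tail axis it arose. Within each cluster the genes lie in order of their number, and low-numbered (anterior) genes are expressed further forward in the embryo than high-numbered (posterior) genes. Adult fibroblasts keep much of the HOX pattern of their site of origin through many divisions, with Polycomb proteins holding silent HOX genes shut and Trithorax proteins holding active ones open. Fibroblasts of the lung are known for activity of HOXA and HOXB genes of low and middle number, while the posterior HOXC and HOXD genes are typical of the lower trunk and the limbs.

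The cells are WI-38, a diploid fibroblast line from human lung, measured as total RNA on 30 Affymetrix HTA 2.0 arrays. For the RAF course, WI-38 cells with a doxycycline-inducible RAF transgene were sampled at T0 and, under 100 ng/ml doxycycline, at 12, 24, 48, 72 and 96 h. For the replicative course, WI-38 cells were sampled at T0 and, during proliferative exhaustion in 21% oxygen, at 144, 264, 432, 624, 792, 1008, 1368 and 2112 h. Each of the 15 labelled groups held 2 arrays, and routine culture was in 3% oxygen with 5% carbon dioxide. The labels do not say which RAF gene the transgene carries, whether the line is 1 clone, or how its promoter behaves without doxycycline. ARAF, the only RAF kinase gene with a single-symbol feature, had group means of 8.20 to 8.30 in the RAF course and was called at none of its times, so that induction was not seen in this feature, and the transgene itself was not checked. Every later RAF group carries doxycycline, so that its effect, that of the transgene and that of time cannot be told apart. Every later replicative group is in 21% oxygen, so that oxygen and time in culture likewise cannot be told apart against T0. The RAF replicates are described as biological, and nothing says so for the replicative arrays, so that p-values there measure only the spread between arrays, which may be technical.

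All values are the authors' processed values, read as log2 intensities in steps of 0.1, with a median of 5.5 on every array. A replicate SD of 0.0 therefore means that both arrays rounded to the same step. No background call was available, so that a value near or below 5.5 cannot be read as expression, and levels are compared between groups for 1 feature and never between genes. In bulk RNA, fewer cells of a type and less RNA per cell cannot be told apart. Of 10 fibroblast markers, 9 had a mean above 7, and the mean of the list lay between 8.82 and 9.91 in every group. The epithelial list (9 genes, 5.87 to 6.06), the endothelial list (8 genes, 5.64 to 5.89) and the leukocyte list (5 genes, 6.17 to 6.59) had 2, 1 and 1 genes averaging above 7. The state of the cultures did not follow the labels in a simple way. A list of 26 mitotic genes, whose mRNAs mark dividing cells, was lowest on the arrays labelled RAF T0, at -1.46 ± 0.092 (SD, n = 2) relative to its mean over all arrays. The same list was high on the arrays labelled RAF 12 h (1.51), RAF 96 h (1.14), replicative T0 (1.93), replicative 624 h (1.54) and replicative 2112 h (1.44), although the last of these should hold the oldest cells. Whether the labels themselves are in the right order was not tested, and if they are not, every difference from T0 would mean something else. Each group is therefore named by its label throughout, and all RAF comparisons rest on the 2 arrays labelled RAF T0, without which they cannot be made.

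As a set, the HOX genes held a narrow band of levels over the 15 labelled groups, and 1 gene, HOXC8, stood far outside it. The range of a gene, its highest group mean minus its lowest, had a median of 0.40 on the log2 scale over the 24 members and of 0.60 over all features. Only HOXC8 (2.90), HOXC6 (1.15) and HOXB5 (1.0) reached a range of at least 1, against 20.9% of all features, and 15 members stayed within 0.5. Of the 24 members, 13 had a mean above the median of all features. For the others expression and background cannot be told apart, so that their small ranges do not show a steady expression. A range as wide as that of HOXC8 was found in 0.944% of features, and one as wide as that of HOXC6 in 15.3%. The mean of the 24 members lay between 5.82 and 5.91 in every group. Opposite changes can cancel in such a mean, so that it does not show a constant pattern. Between replicative T0 and RAF T0, 12 members were called higher (28.2% of all features) and 3 lower (30.7%).

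**Figure D1:**
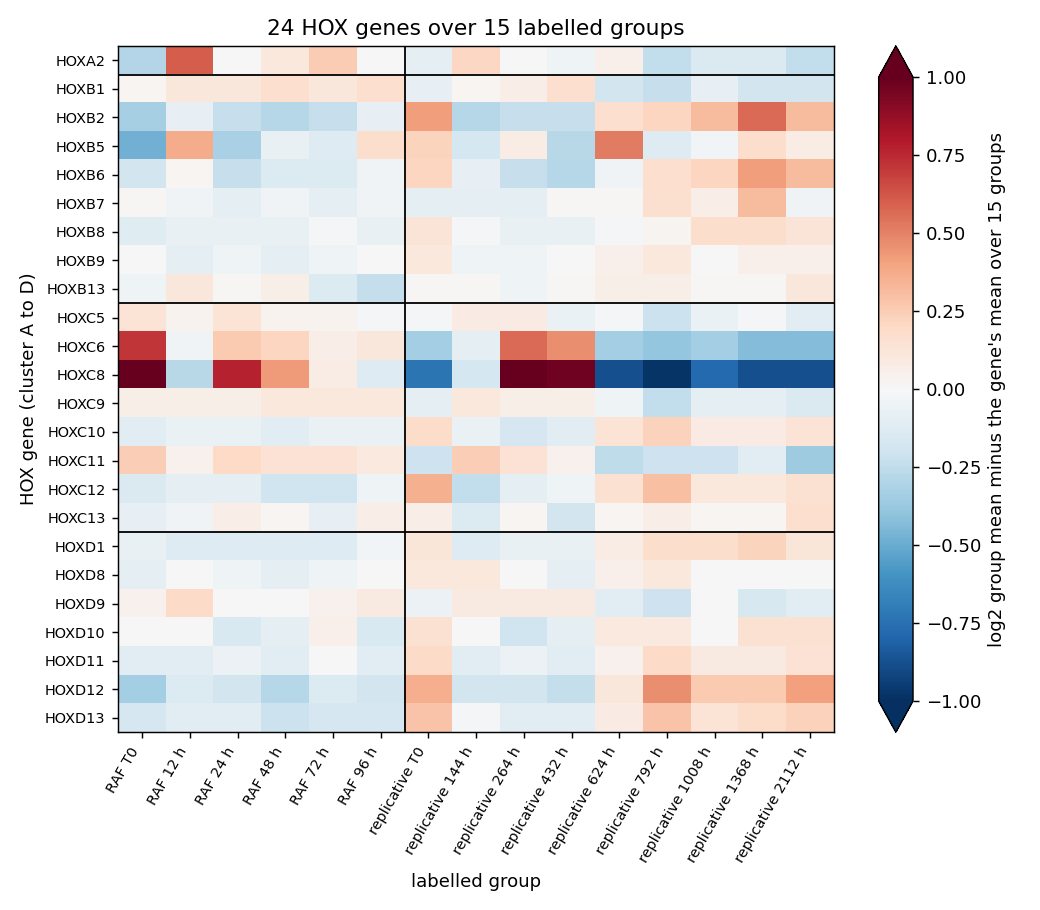
Group means of the 24 HOX genes (rows, clusters A to D) over the 15 labelled groups (columns), each minus the mean of that gene over the 15 groups, on the log2 scale. Colour is capped at 1 in either direction, which HOXC8 exceeds, and HOXC6 and HOXC8 are the rows with the deepest red on the arrays labelled RAF T0, replicative 264 h and replicative 432 h.

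Small as the ranges were, most exceeded the replicate spread. In limma's F test over the 15 groups, with Benjamini-Hochberg adjustment over all features and a threshold of 0.05, 20 of 24 members differed somewhere, and 80.5% of all features did so too. The 4 that did not pass were HOXB9 (adjusted p = 0.126), HOXC5 (0.247), HOXC13 (0.66) and HOXD8 (0.0585). By cluster, HOXA2, 7 of 8 HOXB, 6 of 8 HOXC and 6 of 7 HOXD genes passed. By position, 4 of 4 anterior, 6 of 8 central and 10 of 12 posterior members passed. Within the 6 RAF groups alone, 6 of 24 members passed against 19.6% of all features: HOXA2, HOXB2, HOXB5, HOXB13, HOXC6 and HOXC8. Within the 9 replicative groups, 19 of 24 passed against 74.2%. In each of these tests the share of HOX genes was near that of the array as a whole.

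**Figure D2:**
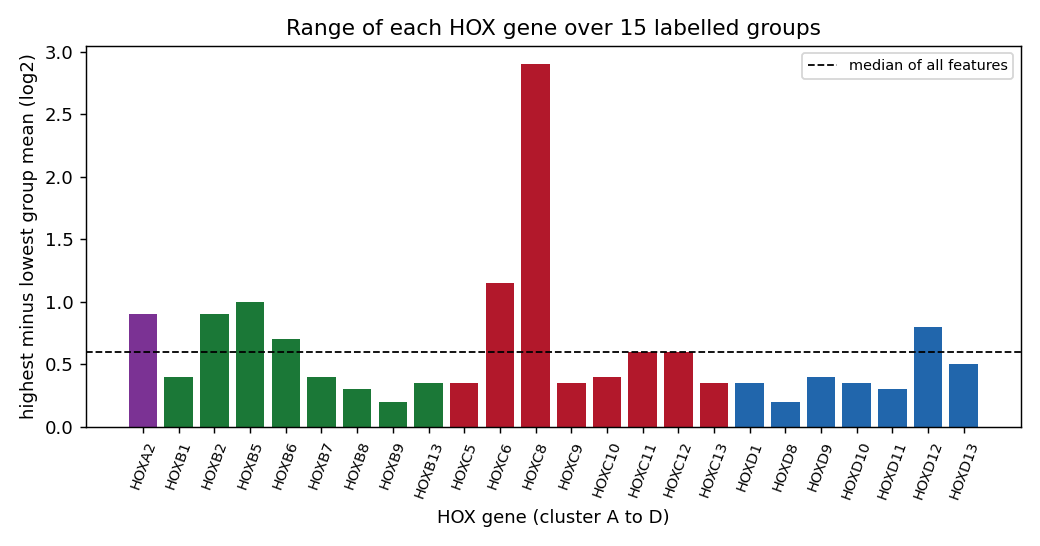
Highest minus lowest group mean over the 15 labelled groups for each of the 24 HOX genes, in log2 units, coloured by cluster. The dashed line is the median over all features (0.60), and HOXC8 at 2.90 and HOXC6 at 1.15 stand above the other members.

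HOXC8, a central gene that in the mouse patterns the thoracic skeleton and motor neurons of the lower neck, changed more than any other member. On the RAF arrays it read 7.6 and 7.7 for T0, 5.3 and 5.6 for 12 h, 6.4 and 6.6 for 24 h, 6.1 and 6.2 for 48 h, 5.8 and 5.8 for 72 h, and 5.7 and 5.5 for 96 h. Both T0 arrays were above every later array, while the arrays labelled 12 h and 96 h overlapped. On the replicative arrays it read 4.9 and 5.1 for T0, 5.6 and 5.5 for 144 h, 7.2 and 7.3 for 264 h, 6.6 and 6.8 for 432 h, 4.9 and 4.8 for 624 h, 4.8 and 4.7 for 792 h, 4.8 and 5.1 for 1008 h, 4.9 and 4.8 for 1368 h, and 4.8 and 4.9 for 2112 h. It was thus high on the arrays labelled 264 h and 432 h, intermediate at 144 h, and below the array median at T0 and from 624 h on.

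Against RAF T0, HOXC8 fell by 2.20 on the log2 scale at 12 h (SE 0.12, limma adjusted p = 1.78e-05), which is 4.59-fold lower, and was still lower by a log2 difference of -2.05 at 96 h (SE 0.12, adjusted p = 5.04e-05). The smallest drop was at 24 h, where it fell by 1.15 (SE 0.12, adjusted p = 0.00272). Against replicative T0 it rose by 0.55 at 144 h (SE 0.11, adjusted p = 0.000839), by 2.25 at 264 h (adjusted p = 1.11e-08) and by 1.70 at 432 h (adjusted p = 1.06e-07). From 624 h to 2112 h its differences from T0 lay between -0.25 and -0.05 and did not pass the test. The step between adjacent labels was a fall of HOXC8 by 1.85 from 432 h to 624 h (SE 0.11, adjusted p = 1.34e-07). The highest and lowest group means, 7.65 ± 0.071 (SD, n = 2) at RAF T0 and 4.75 ± 0.071 at replicative 792 h, differed 7.46-fold.

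HOXC6, its neighbour in the cluster and in the mouse another gene of the thoracic region, moved in the same groups by smaller amounts. It read 6.2 and 6.2 for RAF T0, 5.4 and 5.5 for 12 h, 5.9 and 5.6 for 24 h, 5.7 and 5.7 for 48 h, 5.6 and 5.5 for 72 h, and 5.7 and 5.5 for 96 h. On the replicative arrays HOXC6 read 5.1 and 5.2 for T0, 5.5 and 5.3 for 144 h, 6.1 and 6.0 for 264 h, 5.8 and 6.1 for 432 h, and between 5.0 and 5.2 on all 10 arrays from 624 h to 2112 h. As with HOXC8, the arrays labelled RAF T0 were above every later array, and those labelled 264 h and 432 h were above all other replicative arrays.

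HOXC6 fell at all 5 RAF times, by 0.75 at 12 h (SE 0.10, adjusted p = 0.00157) and by 0.60 at 96 h (adjusted p = 0.00627). It rose by 0.90 at replicative 264 h (SE 0.097, adjusted p = 1.07e-05) and by 0.80 at 432 h (adjusted p = 2.61e-05), and fell by 0.80 from 432 h to 624 h (adjusted p = 5.52e-05). Several weaker HOXC6 calls rested on single arrays. The call at RAF 24 h (-0.45, adjusted p = 0.0462) was lost without either one of the T0 arrays or 24 h replicate 2, with differences then from -0.45 to -0.30. The call at RAF 48 h (-0.50) was lost without any 1 of its 4 arrays, and that at RAF 72 h (-0.65) without either one of the T0 arrays or 72 h replicate 2 (-0.65 to -0.60). At replicative 144 h (0.25, adjusted p = 0.0431) it was lost without either one of the T0 arrays or 144 h replicate 1 (0.15 to 0.30), and over the 6 RAF groups without either one of the T0 arrays (adjusted p up to 0.0812). No omission of a single array ended a call of HOXC8.

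**Figure D3:**
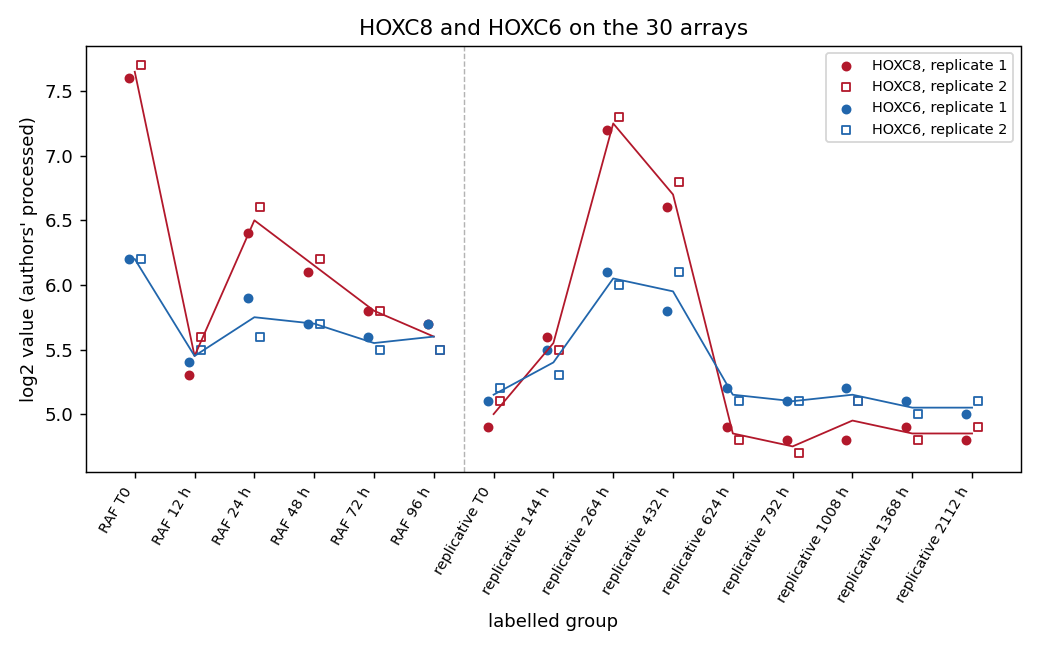
Log2 values of HOXC8 (red) and HOXC6 (blue) on all 30 arrays by labelled group, with filled circles for replicate 1, open squares for replicate 2 and lines through the group means. Each gene is to be read against itself, and both are highest on the arrays labelled RAF T0, replicative 264 h and replicative 432 h.

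RefSeq gives HOXC4, HOXC5 and HOXC6 the same first base, so that the promoter below is listed as that of HOXC5 and is also the upstream promoter of HOXC6. It is shown because HOXC6 changed while HOXC5, a central gene with values between 4.6 and 5.1 on all arrays, did not pass any of the F tests. The window runs from 250 bases before to 50 bases after the start, on the plus strand of GRCh38.p14 at chr12:54016638-54016937. Capitals mark the 2 CCAAT boxes, both on the opposite strand (read ATTGG here), beginning at -200 and -77 relative to the start.
HOXC5 and HOXC6 upstream promoter: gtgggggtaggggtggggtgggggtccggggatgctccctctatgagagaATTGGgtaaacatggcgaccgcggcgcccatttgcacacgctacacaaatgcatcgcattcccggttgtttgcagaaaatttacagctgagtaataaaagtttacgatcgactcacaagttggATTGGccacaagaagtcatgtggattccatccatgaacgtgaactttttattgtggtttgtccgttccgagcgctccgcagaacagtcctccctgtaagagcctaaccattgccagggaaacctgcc
A feature that carries the symbols HOXC4, HOXC5 and HOXC6 together was highest in the same groups, with a mean of 5.6 at RAF T0 and at replicative 264 h and of 4.95 to 5.05 at replicative T0 and from 624 h on. Signal from exons that these genes share cannot be assigned to 1 of them.

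The mitotic list is given beside HOXC8 because both varied widely over the groups. HOXC8 was high where the mitotic genes were low on the arrays labelled RAF T0 (-1.46), replicative 264 h (-0.87) and replicative 432 h (-1.01). It was low where they were high, on the arrays labelled replicative T0, 624 h and 2112 h. The 2 did not mirror each other throughout: on the arrays labelled replicative 792 h and 1008 h the mitotic genes were also low (-1.16 and -1.21), while HOXC8 had group means of 4.75 and 4.95, among its lowest. The part of cell division in the HOXC8 values was not tested.

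**Figure D4:**
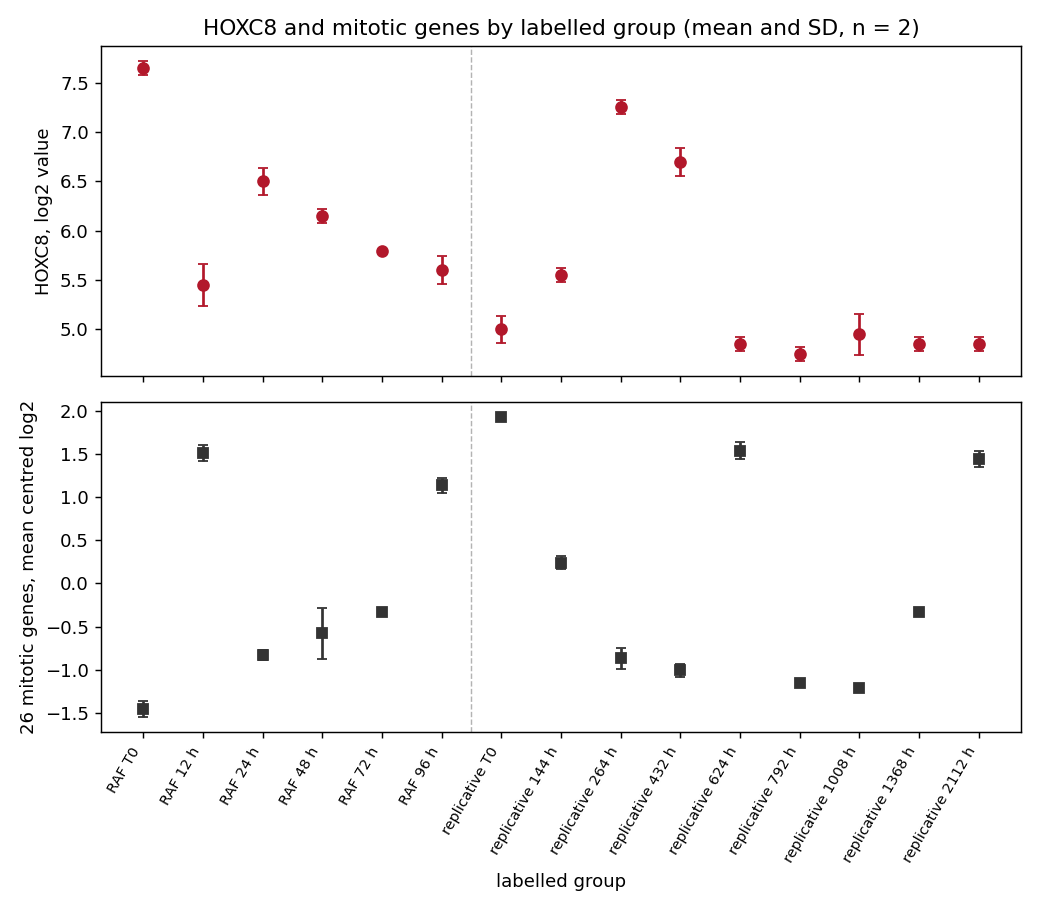
Group means with SD (n = 2) of HOXC8 on the log2 scale (upper panel) and of the 26 mitotic genes relative to their mean over all arrays (lower panel). The arrays labelled replicative 792 h and 1008 h are low in both panels, while those labelled RAF T0, replicative 264 h and 432 h are high in the upper panel and low in the lower one.

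Among the other HOXC genes, all posterior, 4 of 5 passed the 15-group test (80.5% of all features). HOXC11, a gene of the caudal embryo, was higher at replicative 144 h and 264 h than at T0 and did not pass the test over the 6 RAF groups (adjusted p = 0.41). It read 4.6 and 4.5 for RAF T0, 4.0 and 4.2 for replicative T0, 4.5 and 4.6 for 144 h, 4.4 and 4.5 for 264 h, 4.4 and 4.3 for 432 h, and between 3.9 and 4.2 from 624 h on. HOXC11 rose at 144 h by 0.45 (SE 0.10, adjusted p = 0.00244) and at 264 h by 0.35 (adjusted p = 0.0111, lost without T0 replicate 1 or 264 h replicate 2, at 0.25 to 0.30), and fell by 0.30 from 432 h to 624 h (adjusted p = 0.0305). The last call was lost without either one of the 432 h arrays or 624 h replicate 1, with differences from -0.35 to -0.15. All HOXC11 values, including the RAF arrays from 12 h on (4.3 to 4.6), lay below the array median of 5.5.

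HOXC12, a gene of the posterior end of the cluster, ran the other way. It read 6.4 and 6.2 for replicative T0, 5.7 and 5.7 for 144 h, 5.9 and 5.8 for 264 h, 5.9 and 5.9 for 432 h, 6.1 and 6.1 for 624 h, 6.3 and 6.2 for 792 h, 6.1 and 6.0 for 1008 h, 6.0 and 6.1 for 1368 h, and 6.1 and 6.1 for 2112 h, and between 5.7 and 6.0 on all RAF arrays. HOXC12 fell by 0.60 at 144 h (SE 0.069, adjusted p = 1.77e-05) and rose by 0.20 from 432 h to 624 h (adjusted p = 0.0326), a call lost without any 1 of the 4 arrays (adjusted p from 0.0979 to 0.104). HOXC10, a gene of the lumbar region and hindlimb in the mouse, moved with HOXC12: it fell by 0.35 at 264 h (adjusted p = 0.000337) and rose by 0.25 from 432 h to 624 h (adjusted p = 0.00472). HOXC9, a thoracic gene in the mouse, had group means from 4.40 to 4.75 and HOXC13, a gene of hair and nail formation, from 6.15 to 6.50.

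Among the HOXB genes, HOXB5, HOXB2 and HOXB6 had the widest ranges (1.0, 0.90 and 0.70). HOXB5, expressed in the developing lung mesenchyme of the mouse, read 8.9 and 8.8 for RAF T0, 9.7 and 9.7 for 12 h, 9.0 and 9.0 for 24 h, 9.1 and 9.4 for 48 h, 9.2 and 9.2 for 72 h, and 9.5 and 9.5 for 96 h. Every later array was above both T0 arrays. On the replicative arrays HOXB5 read 9.5 and 9.6 for T0, 9.1 and 9.2 for 144 h, 9.5 and 9.3 for 264 h, 9.1 and 9.0 for 432 h, 9.8 and 9.9 for 624 h, 9.1 and 9.3 for 792 h, 9.3 and 9.3 for 1008 h, 9.5 and 9.5 for 1368 h, and 9.3 and 9.5 for 2112 h. The arrays labelled 624 h were the highest of the course.

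HOXB5 rose by 0.85 at RAF 12 h (SE 0.087, adjusted p = 0.000348) and by 0.65 at RAF 96 h (adjusted p = 0.00202), the groups in which HOXC8 was lowest within the RAF course. It fell by 0.40 at replicative 144 h (SE 0.09, adjusted p = 0.00247) and by 0.50 at 432 h (adjusted p = 0.000544), and rose by 0.80 from 432 h to 624 h (adjusted p = 3.24e-05). The mitotic genes were high at RAF 12 h, RAF 96 h and replicative 624 h (1.51, 1.14 and 1.54), and their part in the HOXB5 values was not tested.

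HOXB2, which patterns the hindbrain in the mouse, separated the courses. It read 7.6 and 7.6 for RAF T0, 7.9 and 7.8 for 12 h, 7.7 and 7.7 for 24 h, 7.7 and 7.6 for 48 h, 7.7 and 7.7 for 72 h, and 7.8 and 7.9 for 96 h. On the replicative arrays it read 8.3 and 8.4 for T0, 7.6 and 7.7 for 144 h, 7.7 and 7.7 for 264 h, 7.7 and 7.7 for 432 h, 8.1 and 8.1 for 624 h, 8.1 and 8.2 for 792 h, 8.2 and 8.3 for 1008 h, 8.5 and 8.5 for 1368 h, and 8.2 and 8.3 for 2112 h. Only the replicative arrays labelled 144 h, 264 h and 432 h overlapped the RAF arrays.

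HOXB2 rose by 0.25 at RAF 12 h (SE 0.055, adjusted p = 0.0139) and at RAF 96 h (adjusted p = 0.018). Each of these calls was lost without either one of the T0 arrays and without 1 later array (12 h replicate 1, 96 h replicate 2), with differences from 0.20 to 0.25, and the call over the 6 RAF groups was lost in 10 of 12 omissions. HOXB2 fell by 0.70 at replicative 144 h (SE 0.059, adjusted p = 1.56e-06) and by 0.65 at 264 h and at 432 h (adjusted p = 2.62e-06 and 2.43e-06), and rose by 0.40 from 432 h to 624 h (adjusted p = 0.000218).

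HOXB6, active in lateral plate mesoderm and lung mesenchyme of the mouse, kept to 5.8 to 6.1 on all RAF arrays. On the replicative arrays HOXB6 read 6.3 and 6.3 for T0, 6.0 and 6.0 for 144 h, 5.9 and 5.8 for 264 h, 5.8 and 5.8 for 432 h, 6.0 and 6.1 for 624 h, 6.2 and 6.3 for 792 h, 6.3 and 6.3 for 1008 h, 6.5 and 6.5 for 1368 h, and 6.4 and 6.4 for 2112 h. It fell by 0.50 at 432 h (SE 0.051, adjusted p = 6.59e-06) and rose by 0.20 at 1368 h (adjusted p = 0.0166), the labels with its lowest and highest means. The rise at 1368 h was lost without any 1 of the 4 arrays (adjusted p from 0.0622 to 0.0697).

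The remaining HOXB genes moved little. HOXB7, a central gene, lay between 7.9 and 8.0 on all RAF arrays and rose by 0.40 at replicative 1368 h, where it read 8.2 and 8.4 (SE 0.078, adjusted p = 0.00297). HOXB1, which sets the identity of a hindbrain segment in the mouse, read 5.7 and 5.6 for 432 h and 5.3 and 5.3 for 624 h, a fall by 0.35 (adjusted p = 0.00327). HOXB8 had a range of 0.30 and HOXB9, a thoracic gene in the mouse, of 0.20. HOXB13, known from prostate, fell by 0.20 at RAF 96 h, with a group mean of 5.60 there, a call lost without any 1 of the 4 arrays (adjusted p from 0.089 to 0.0961).

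HOXA2, which in the mouse gives the second branchial arch its identity, was the only single-symbol gene of cluster A and peaked in 1 group. It read 4.7 and 4.7 for RAF T0, 5.6 and 5.6 for 12 h, 5.1 and 4.9 for 24 h, 5.0 and 5.2 for 48 h, 5.2 and 5.3 for 72 h, and 4.9 and 5.1 for 96 h. On the replicative arrays it read 4.9 and 4.9 for T0, 5.2 and 5.2 for 144 h, 5.0 and 5.0 for 264 h, 4.9 and 5.0 for 432 h, 5.1 and 5.0 for 624 h, and between 4.7 and 4.9 from 792 h on. The arrays labelled RAF 12 h were the only ones above the array median.

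HOXA2 rose by 0.90 at RAF 12 h (SE 0.097, adjusted p = 0.000465), by 0.40 at 48 h (adjusted p = 0.045) and by 0.55 at 72 h (adjusted p = 0.013), and by 0.30 at replicative 144 h (SE 0.062, adjusted p = 0.00145). The rise at 48 h was lost without either one of the T0 arrays or 48 h replicate 2 (0.30 to 0.40), and that at 72 h without any 1 of its 4 arrays (0.50 to 0.60, adjusted p up to 0.0961). The HOXA2 promoter, on the minus strand of GRCh38.p14 at chr7:27102634-27102933, is shown because it holds 4 CCAAT boxes and 1 match to the site of PBX and HOX proteins bound together, searched as TGATNNAT on both strands. Capitals mark the CCAAT boxes (CCAAT or, on the opposite strand, ATTGG) and the PBX-HOX match, which is on the opposite strand and begins at -114 relative to the start.
HOXA2 promoter: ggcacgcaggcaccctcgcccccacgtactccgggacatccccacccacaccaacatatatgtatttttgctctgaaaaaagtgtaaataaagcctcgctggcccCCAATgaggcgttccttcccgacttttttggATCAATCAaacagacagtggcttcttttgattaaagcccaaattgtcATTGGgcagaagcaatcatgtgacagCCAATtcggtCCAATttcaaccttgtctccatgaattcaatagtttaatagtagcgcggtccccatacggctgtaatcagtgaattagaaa
The RefSeq promoter table holds 9 of the 24 members. TGATNNAT was found in 3 of these 9 (HOXA2, HOXB1 and HOXD11) and in 7.4% of all 35116 promoters, and CCAAT in 7 of 9 and in 34.6%. The letters TATAAA were found in 1 of 9 (HOXD13) and in 11.5% of all promoters. Neither the AP-1 site TGANTCA (7.71% of all) nor the nuclear receptor half-site AGGTCA (13.8%) was in any of the 9 windows.

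**Figure D5:**
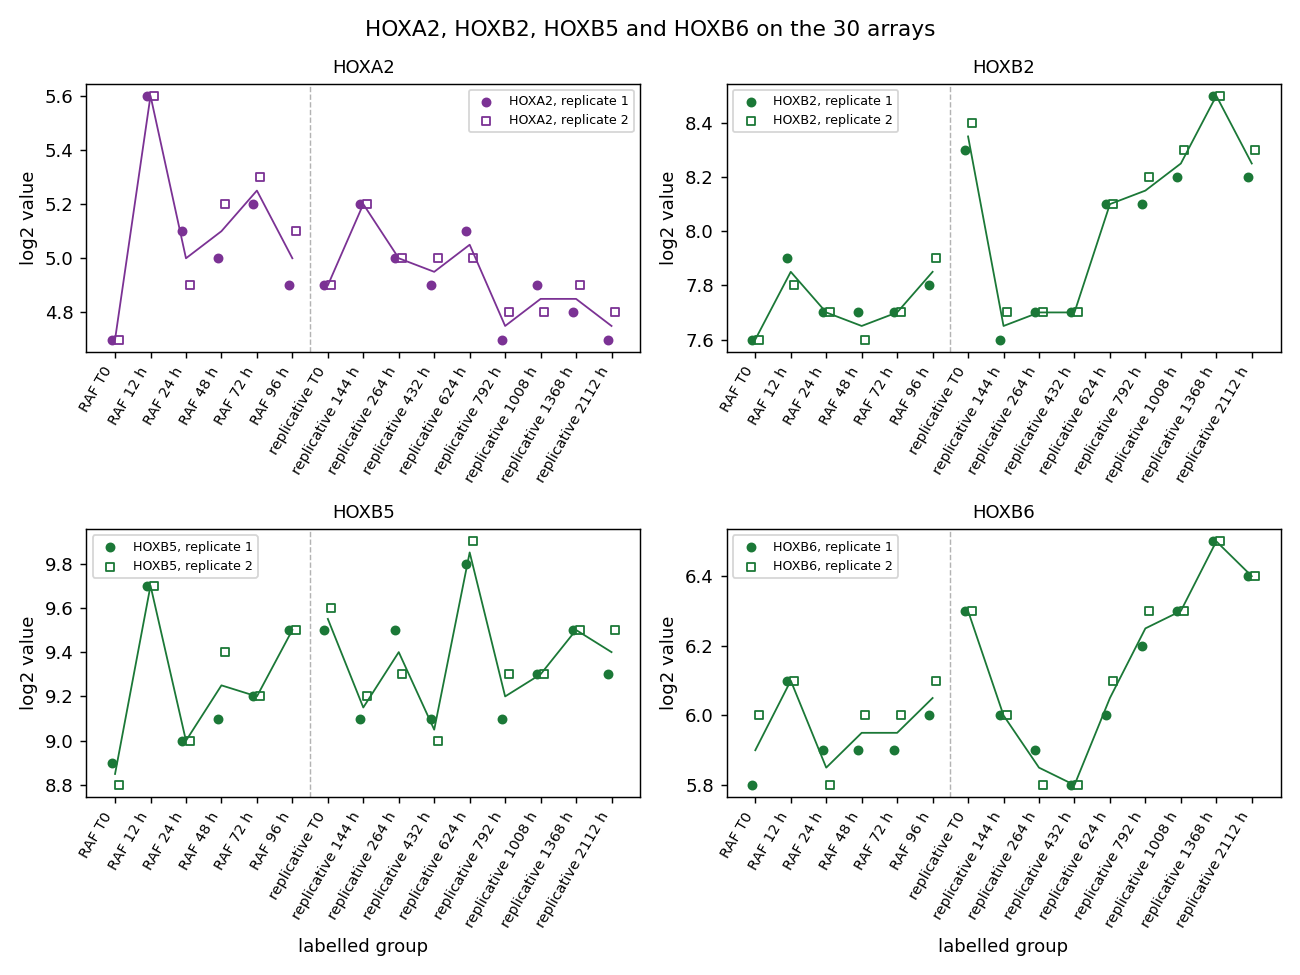
Log2 values of HOXA2, HOXB2, HOXB5 and HOXB6 on all 30 arrays by labelled group, with filled circles for replicate 1, open squares for replicate 2 and lines through the group means. HOXA2 is highest on the arrays labelled RAF 12 h, and HOXB2 and HOXB6 are lower at replicative 144 h to 432 h than at replicative T0.

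No HOXD gene passed limma's test at any of the 5 RAF times, where 5.9% (24 h) to 19.4% (12 h) of all features were called. With shares of that size, 0 of 7 is not read as a trait of the HOXD genes. At most 1 of 7 had an unadjusted p under 0.05 at any RAF time. Several HOXD genes were lower at the early replicative labels. Against replicative T0, 4 of 7 were lower at 144 h, 5 of 7 at 264 h and 6 of 7 at 432 h (28.6%, 26.5% and 26.8% of all features). None was higher (30.1%, 30.4% and 31.2%). The counts rested in part on single arrays: the 5 at 264 h became 4 in 3 of 4 omissions, and the 6 at 432 h became 3 without 432 h replicate 1 and 4 without any other 1 of its arrays. HOXD8 at 432 h was lost in all 4 omissions and HOXD10 in 3. At 144 h, 4 were lower in every omission. Without T0 replicate 2, 1 HOXD gene was called higher at each of the 3 labels. HOXD12, a limb gene, showed it most: it read 5.8 and 5.9 for T0, 5.3 and 5.3 for 144 h, 5.3 and 5.3 for 264 h, 5.3 and 5.2 for 432 h, 5.6 and 5.6 for 624 h, 6.0 and 5.9 for 792 h, 5.7 and 5.8 for 1008 h, 5.7 and 5.8 for 1368 h, and 5.9 and 5.9 for 2112 h. All RAF arrays, T0 included, read between 5.1 and 5.4, at the level of the arrays labelled 144 h to 432 h.

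HOXD12 fell by 0.60 at 432 h (SE 0.059, adjusted p = 4.7e-06) and rose by 0.35 from 432 h to 624 h (adjusted p = 0.000557). HOXD13, mutated in human synpolydactyly, read 5.7 and 5.6 for replicative T0, 5.4 and 5.3 for 144 h, 5.2 and 5.3 for both 264 h and 432 h, 5.5 and 5.4 for 624 h, 5.7 and 5.6 for 792 h, 5.5 and 5.5 for 1008 h, 5.6 and 5.5 for 1368 h, and 5.6 and 5.6 for 2112 h, and between 5.1 and 5.3 on all RAF arrays. HOXD13 fell by 0.40 at 432 h (SE 0.066, adjusted p = 0.000274), and HOXD11, also a limb gene, fell by 0.30 at the same label (adjusted p = 0.00145). HOXD9 and HOXD10, genes of the lumbar region in the mouse, had ranges of 0.40 and 0.35, HOXD1 of 0.35 and HOXD8 of 0.20. All 7 HOXD genes had means between 5.10 and 6.21, close to the array median, where expression and background could not be told apart.

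Counted by comparison, HOX genes were called at shares that lay on either side of the background. At RAF 12 h, 3 members were higher than at T0 (9.7% of all features) and 2 lower (9.73%), and 19.4% of features differed in either direction. The 3 were HOXA2, HOXB2 and HOXB5, and the 2 were HOXC6 and HOXC8. At RAF 24 h no member was higher (2.64%) and 2 were lower (3.26%), against 5.9% in either direction, and 3 had an unadjusted p under 0.05. Without either one of the T0 arrays, or without replicate 2 of 24 h, 1 member was called. At RAF 48 h, 2 were higher (3.96%) and 2 lower (4.35%), 8.3% in all. This count fell from 4 to 1 without either one of the T0 arrays and to 2 without replicate 2 of 48 h. At RAF 72 h, 2 were higher (4.34%) and 2 lower (4.47%), 8.81% in all, and the 4 became 1 without either one of the T0 arrays or without replicate 2 of 72 h, and 2 without replicate 1. At RAF 96 h, 2 were higher (7.97%) and 3 lower (7.71%), 15.7% in all, and the 5 became 3 without either one of the T0 arrays or without replicate 2 of 96 h. Of the calls at these 4 later times, those of HOXC8 were kept in every case. All 5 comparisons share the T0 arrays.

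In the replicative course, calls were many at the first labels and few later. At 144 h, 5 members were higher (30.1% of all features) and 10 lower (28.6%), 58.7% in all. At 264 h, 3 were higher (30.4%) and 10 lower (26.5%), 56.9% in all. At 432 h, 3 were higher (31.2%) and 12 lower (26.8%), 58.0% in all. Those lower in all 3 were HOXB2, HOXB6, HOXB8, HOXC10, HOXC12, HOXD1, HOXD11, HOXD12 and HOXD13, and those higher in all 3 were HOXC6 and HOXC8. These 3 comparisons share the T0 arrays, so that the overlap is a description. The call of HOXB8 at 144 h was lost without either one of the T0 arrays or 144 h replicate 2 (-0.15 to -0.10). Those of HOXD1 at 264 h and at 432 h were each lost without T0 replicate 2 or replicate 1 of the later label (-0.15).

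From 624 h on, few members differed from T0. At 624 h, 1 was higher (7.17%) and 3 lower (6.67%), 13.8% in all, and the 4 became 2 without T0 replicate 2, 0 without 624 h replicate 1 and 1 without 624 h replicate 2. At 792 h, 1 was higher (13.1%) and 2 lower (11.7%), 24.8% in all, and 1 was left without 792 h replicate 1. At 1008 h, none was higher (11.7%) and HOXC12 alone was lower (11.3%), 23.0% in all. No member was called at 1008 h without T0 replicate 1 or 1008 h replicate 2, and 2 were called without T0 replicate 2. At 1368 h, HOXB6 and HOXB7 were higher (8.74%) and HOXC12 lower (8.41%), 17.1% in all, and 1 was left without T0 replicate 1 or 1368 h replicate 1. At 2112 h, limma called 0 of 24 members (1.34% of features higher, 1.46% lower, 2.8% in all), and 2 had an unadjusted p under 0.05. In the mitotic list, 21 of 26 genes were lower at 2112 h than at T0 (median -0.50) and none was higher.

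Within 21% oxygen, the arrays labelled 2112 h differed from those labelled 144 h in 17 members, 10 higher (29.8%) and 7 lower (30.9%), 60.7% in all, and 11 members were left without 2112 h replicate 2. HOXB2 and HOXD12 were each higher by 0.60 (SE 0.059, adjusted p = 4.71e-06), and HOXC8 was lower by a log2 difference of -0.70 (SE 0.11, adjusted p = 0.00013). HOXA2 fell by 0.45 (SE 0.062, adjusted p = 6.86e-05) and HOXC11 by 0.60 (SE 0.10, adjusted p = 0.000306).

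From 432 h to 624 h, 7 members were higher (21.1%) and 5 lower (24.4%), 45.4% in all. HOXB2, HOXB5, HOXB6, HOXC10, HOXC12, HOXD12 and HOXD13 rose, and HOXB1, HOXC6, HOXC8, HOXC11 and HOXD9 fell. The call of HOXD9 was lost without any 1 of the 4 arrays, and that of HOXD13 without replicate 1 of either label (0.15). In cluster C, 2 members rose and 3 fell, so that the step did not run 1 way along this cluster. In cluster B the only fall was that of HOXB1, and in cluster D that of HOXD9, so that no such reading is made there. The mitotic list stood at -1.01 at 432 h and at 1.54 at 624 h, and its part was not tested.

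Between the starting cells of the courses, HOX genes were called in either direction at a share near the background, and HOXC8 had the widest difference among them. By direction, they were called higher more often, and lower less often, than all features. Comparing the arrays labelled replicative T0 with those labelled RAF T0, 12 members were higher (28.2%) and 3 lower (30.7%), 58.9% in all. The 3 lower were HOXC8 (fell by 2.65, SE 0.11, adjusted p = 7.47e-13), HOXC6 (fell by 1.05, adjusted p = 7.7e-08) and HOXC11 (fell by 0.45, adjusted p = 0.000545). Of the 12 higher, 5 were HOXD genes and 4 HOXB genes, with HOXB2 higher by 0.75 (SE 0.058, adjusted p = 3.12e-09), HOXD12 by 0.70 (SE 0.067, adjusted p = 5.51e-08) and HOXB5 by 0.70 (adjusted p = 2.97e-06). The call of HOXA2, also among the 12, was lost without any 1 of the 4 arrays (0.20). That of HOXD1 was lost without RAF T0 replicate 1 or replicative T0 replicate 2 (0.15). The cell line, the course and the mitotic state (1.93 against -1.46) cannot be told apart here.

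The end of each course against its own T0 differed between the courses in 5 members, with 2 called higher (6.66%) and 3 lower (7.0%) of 13.7% called in all. Taking the replicative change at 2112 h minus the RAF change at 96 h, HOXC8 had a difference of 1.90 (SE 0.16, adjusted p = 8.63e-08) and HOXC6 of 0.50 (SE 0.14, adjusted p = 0.0255). HOXB5 had -0.80 (SE 0.13, adjusted p = 0.000211), HOXA2 -0.45 (adjusted p = 0.00977) and HOXB2 -0.35 (adjusted p = 0.00575). In the replicative course the 5 had changes between -0.15 and -0.10, none past the test, and in the RAF course between -2.05 and 0.65. The count became 3 without RAF 96 h replicate 2. The HOXC6 difference lost its call in 5 of 8 omissions (either one of the RAF T0 arrays, RAF 96 h replicate 2, replicative T0 replicate 1 or 2112 h replicate 2), with values of 0.40 to 0.50, and that of HOXA2 without RAF 96 h replicate 2 or replicative 2112 h replicate 1 (-0.40 to -0.35).

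The noncoding RNAs of the clusters had a median range of 0.40, as the HOX genes did. Of 23 listed, 17 had a feature, and 12 of these passed the 15-group F test (80.5% of all features). The F test over the RAF groups was passed by 0 (19.6%, with 4 at an unadjusted p under 0.05). That over the replicative groups was passed by 11 (74.2%). Against RAF T0, 1 of 17 was called at each of 12, 24 and 96 h (19.4%, 5.9% and 15.7% of all features). HOTAIR, an RNA of the HOXC cluster, stayed between 5.8 and 6.1 on all arrays. HOXB-AS3, antisense in the HOXB cluster, had group means from 7.15 at replicative 792 h to 7.80 at 264 h, and HOXC-AS1 from 5.60 at 792 h to 6.20 at 432 h. Whether the array's probes separate an antisense RNA from its partner gene was not checked.

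The host RNA of miR-196a at MIR196A2, in the HOXC cluster, had the widest range of these RNAs (0.95), on values below the array median. It read 3.7 and 3.6 for RAF T0, 4.1 and 4.2 for replicative T0, 3.5 and 3.5 for 144 h, 3.7 and 3.8 for 264 h, 4.0 and 3.8 for 432 h, and 4.4 and 4.4 for 624 h, and rose by 0.50 from 432 h to 624 h (SE 0.099, adjusted p = 0.00168). The array reads the precursor transcript and not the mature miRNA. miR-196 pairs with HOX mRNAs, and in the mouse it directs cleavage of Hoxb8 mRNA. The mature sequences of both human forms are shown with the seed (bases 2 to 8) in capitals, since the seed sets which mRNAs a miRNA pairs with.
hsa-miR-196a-5p: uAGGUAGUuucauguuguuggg
hsa-miR-196b-5p: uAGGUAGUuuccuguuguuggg
The 2 share the seed and 21 of 22 positions. RefSeq places miR-196a-5p at chr12:53991762-53991783 (plus strand, MIR196A2) and at chr17:48632532-48632553 (minus strand, MIR196A1), and miR-196b-5p at chr7:27169528-27169549 (minus strand, MIR196B), on GRCh38.p14. MIR196A1 did not pass the 15-group test (adjusted p = 0.778). HOXB8 moved by at most 0.30 between any groups, with group means of 5.35 to 5.65, near the array median. Whether miR-196 acts on HOXB8 in these cells was not tested.

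TALE proteins, the PBX, MEIS and PKNOX cofactors that bind DNA with HOX proteins, all passed the 15-group test (8 of 8 measured of 9 listed, against 80.5% of all features), with 3 of 8 in the RAF (19.6%) and 8 of 8 in the replicative groups (74.2%). MEIS1 had the widest range, 1.5, from 6.05 at replicative 792 h to 7.55 at RAF 12 h. It rose by 0.85 at RAF 12 h (SE 0.079, adjusted p = 0.000223) and by 1.15 at replicative 144 h (SE 0.059, adjusted p = 2.93e-08). PBX3 fell by 0.80 at replicative 144 h (SE 0.069, adjusted p = 1.82e-06), as HOXB2 and HOXD12 did at that label, and MEIS2 was highest at RAF 12 h, at 6.95.

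Of the Polycomb genes, which keep silent HOX genes shut, 15 of 16 measured (21 listed) passed the 15-group test (80.5% of all features), 9 in the RAF groups (19.6%) and 14 in the replicative groups (74.2%). EZH2, the histone H3 lysine 27 methyltransferase, was lowest at RAF T0 (5.15), where HOXC8 was highest, and highest at RAF 12 h (6.65). It rose by 1.5 between these (SE 0.083, adjusted p = 2.21e-05) and by 1.10 from replicative 432 h to 624 h (SE 0.069, adjusted p = 2.9e-07). EZH2 is itself higher in dividing cells, and the mitotic list stood at -1.46 and 1.51, then at -1.01 and 1.54, in these groups. The part of cell division in the EZH2 values was not tested, nor was any link of EZH2 to HOXC8. JARID2 and MTF2, accessory proteins of the same complex, were lowest at RAF T0 and highest at replicative 792 h, with ranges of 1.35 and 0.95.

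All 13 measured Trithorax and H3K27 demethylase genes (15 listed) passed the 15-group test (80.5% of all features), 4 in the RAF groups (19.6%) and 13 in the replicative groups (74.2%). KDM6B, a demethylase of H3 lysine 27, ranged from 6.55 at replicative 624 h to 7.70 at 1008 h. WDR5, a core subunit of the H3 lysine 4 methyltransferases, was highest at replicative T0 (8.45) and lowest at 432 h (7.40), and PSIP1 ranged from 6.65 at RAF T0 to 7.5 at RAF 12 h.

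Retinoic acid induces HOX genes in embryos, and 12 of 15 measured genes of its pathway (18 listed) passed the 15-group test (80.5% of all features), 3 in the RAF (19.6%) and 11 in the replicative groups (74.2%). RDH10, which makes the precursor retinaldehyde, ranged from 7.45 at replicative T0 to 9.50 at 1008 h, and CYP26B1, which degrades retinoic acid, from 6.50 at RAF 72 h to 7.65 at replicative 792 h. ALDH1A3, which makes retinoic acid, was highest at RAF 12 h (7.05) and lowest at replicative 792 h (6.10). Among the ParaHOX and related homeobox genes, 7 of 11 passed (80.5%), 0 in the RAF (19.6%, with 1 at an unadjusted p under 0.05) and 5 in the replicative groups (74.2%), and the widest ranges were those of CDX2 and EVX2 (0.75 each) and GSX1 (0.55).

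Other positional transcription factors of fibroblasts and lung mesenchyme passed the 15-group test in 30 of 36 measured genes (38 listed, 80.5% of all features), 11 in the RAF (19.6%) and 26 in the replicative groups (74.2%). TCF21 and TBX5, active in lung mesenchyme, were both highest at RAF T0 (8.65 and 8.85), as HOXC8 was, and lowest at replicative 1368 h (6.80) and 792 h (7.25). TCF21 fell by 1.10 at RAF 12 h (SE 0.07, adjusted p = 4.05e-05) and was lower at replicative T0 than at RAF T0 by a log2 difference of -1.65 (SE 0.071, adjusted p = 8e-13). PRRX1, a factor of limb and craniofacial mesenchyme, was lowest at replicative 432 h (7.15) and highest at 1368 h (9.10), the labels of the lowest and highest HOXB6. The median range was 0.35 for the ParaHOX list, 0.40 for the noncoding RNAs and for the retinoic acid genes, 0.45 for the Trithorax list, 0.50 for the TALE list, 0.52 for these positional factors and 0.60 for the Polycomb list, against 0.40 for the HOX genes, so that the narrow band is not particular to HOX genes.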

How the data were processed

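Total RNA of WI-38 cells was hybridised to 30 Affymetrix HTA 2.0 arrays. The authors deposited 1 processed value per feature and array, taken here as a log2 intensity since the values run from -1.6 to 14. How probes were summarised, normalized and put on a log base is not given in the sources used here. Scanner files were not used. Arrays were grouped by their labels. Gene names came from the platform's probe table, and features with several symbols were left out. The members and gene lists were chosen with earlier results of these data known. Sample values are given for the 12 members with the widest range of group means, in part as ranges, and for HOXB1 and HOXB7 only at some labels. From each list of other genes, the 3 with the widest range among those past the 15-group test are named with values. HOTAIR, MIR196A1 and ARAF were named in addition, after their values were seen, as were MIR196B's sequence and the feature of 3 HOXC symbols.

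Models were fitted to all 52329 features by lmFit and eBayes of limma 3.58.1 (R 4.3.3): the RAF arrays with 6 residual degrees of freedom, the replicative arrays with 9, and all arrays with 15 for tests across the courses. P-values were two-sided and adjusted by Benjamini-Hochberg over all features, with a threshold of 0.05. Simulated data held few changed features, and the change was put into more groups for the 15-group and 9-group tests than for the RAF tests. There, the 15-group test recovered 80% of features changed by 0.5 and 98% of those changed by 1, and the 9-group test 56% and 93%. The 6-group RAF test recovered 26% and 70%, and RAF 96 h against T0 43% and 82%. Far more features were called in the data (80.5% over the 15 groups, 19.6% over the RAF groups), which makes the Benjamini-Hochberg adjustment less strict. The percentages therefore neither give the power of the tests on the data nor compare the tests, and small RAF changes could be missed. The number of arrays limits the precision. Partner arrays correlated at 0.9921 to 0.9969 and 27.7% to 38.4% of their values were equal, so that none was a copy. Alternatives were quantile normalization, a filter on dim features, an intensity trend in eBayes, 1 model of all arrays, the replicate number as a block, and each array left out in turn. Sequences are from RefSeq tables of GRCh38.p14, in which all 24 members were found by symbol and 9 had a promoter.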

Additional observations from a re-analysis of the deposited data

Results flagged for a closer look

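The change at the end of each course differed between the courses in 5 members, by limma's test of the difference itself (replicative 2112 h minus T0, minus RAF 96 h minus T0, adjusted over all features). For HOXC8 the difference was 1.90 (SE 0.16, adjusted p = 8.63e-08), from a replicative change of -0.15 and a RAF change of -2.05. For HOXC6 it was 0.50 (SE 0.14, adjusted p = 0.0255), from -0.10 and -0.60. HOXB5 had -0.80 (SE 0.13, adjusted p = 0.000211), from -0.15 and 0.65. HOXA2 had -0.45 (SE 0.11, adjusted p = 0.00977), from -0.15 and 0.30, although neither change passed its own test. HOXB2 had -0.35 (SE 0.082, adjusted p = 0.00575), from -0.10 and 0.25. The arrays labelled RAF T0 enter all 5 differences, and the mitotic list was at -1.46 on them.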

How the results depend on the processing

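Every count of members was recomputed under the alternatives. Directions were compared only for the 12 members with the widest range of group means, and no difference called in either setting reversed. Keeping only features brighter than the median left 13 members, and the calls among them were 1 at RAF 24 h (2 of 24 in the main setting), 2 at 48 h (4) and 2 at 72 h (4), 8 at replicative 144 h (15), 7 at 264 h (13), 9 at 432 h (15), 2 at 1008 h (1), 9 for 2112 h against 144 h (17), 9 over the 9 groups (19), 8 between the T0 groups (15) and 11 over the 15 groups (20). Fewer members tested is part of the alternative's construction. Quantile normalization gave 2 calls at 1008 h and 1 model of all arrays gave 0, against 1; the cause was not tested. The intensity trend moved no count by over 1.5 times, and no member had a second feature to use in place of the brightest.

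Leaving out each array in turn gave 4 to 5 calls at RAF 12 h, 1 to 2 at 24 h, 1 to 3 at 48 h, 1 to 2 at 72 h, 3 to 4 at 96 h and 4 to 6 over the 6 groups. In the replicative course it gave 13 to 14 at 144 h, 11 to 14 at 264 h, 12 to 15 at 432 h, 0 to 3 at 624 h, 1 to 2 at 792 h, 0 to 2 at 1008 h, 1 to 2 at 1368 h, 0 at 2112 h, 11 to 14 for 2112 h against 144 h, 8 to 10 for 624 h against 432 h and 17 to 20 over the 9 groups. Between the T0 groups it gave 13 to 15, for the difference of endpoints 3 to 5, and over the 15 groups 19 to 21. A lone array was assumed to vary like the other groups. Over all 24 members and tests, these omissions ended a call in 152 of 3168 cases, added one in 32 and did neither in 2984.

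The replicate numbers showed no pairing common to all groups. Over 105 pairs of groups, same-numbered deviations correlated at a median of 0.0205 (from -0.277 to 0.358), and 18 pairs were above 0.1. Whether some of the groups share a pairing was not tested. With the replicate number as a block, no count moved by over 1.5 times and RAF 12 h kept 5 calls. The block ended the calls of HOXC6 at replicative 144 h (0.25), HOXB5 at RAF 72 h (0.35), HOXA2 at RAF 48 h (0.40) and HOXB1 for 2112 h against 144 h (-0.20), and that of HOXB2 over the 6 RAF groups. It added HOXB9 at replicative 144 h and 264 h (-0.15 each), HOXC11 at 432 h (0.25) and HOXC13 for 2112 h against 144 h (0.30). With 2 arrays a group and steps of 0.1, differences of a few steps are at the limit of what the data resolve.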

Other observations

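Features with several symbols cover HOX genes that no single-symbol feature reads, and were used in no comparison of members. The feature of HOXB3, HOXB4 and MIR10A had group means from 6.55 at replicative 792 h to 7.20 at replicative 624 h, with 7.10 at RAF 12 h, the groups in which HOXB5 was also high. The feature of HOXA3 and HOXA6 ran from 6.05 to 6.40, with the highest mean at replicative T0. The feature of HOXA9, HOXA10-HOXA9 and MIR196B ran from 5.70 to 5.90, and that of HOXD3, HOXD4 and MIR10B from 5.00 to 5.20.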
